A study of Mus musculus with 2 samples.

Results

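The 9 genes described here place lymphocytes in tissue or mark their resting state, and were followed across the lymphocytes of mouse omentum. They are the chemokine receptors *Ccr7*, *Cxcr5* and *Cxcr4*, the exit receptor *S1pr1*, its regulator *Klf2*, the oxysterol receptor *Gpr183*, the transcription factors *Lef1* and *Tcf7*, and *Igfbp4*. They were taken by symbol from a list, and all 9 were found among the 19960 genes of the deposited table (*S1pr1* under its Ensembl identifier). The 12 lymphocyte classes described held 6210 of the 8654 cells kept from WT mice and 1755 of the 5727 cells kept from *Postn*-DTR mice.

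Omentum is a fatty sheet of the peritoneal cavity that carries milky spots, clusters of leukocytes around a stromal network. Both groups received diphtheria toxin (DT) and were analysed at 5 days. WT mice carried the normal *Postn* gene, whereas *Postn*-DTR mice (DTR in the labels) were heterozygous for a diphtheria toxin receptor inserted into *Postn* by gene editing, so that DT removes cells that express *Postn*. The study asked how such stromal cells bear on lymphocyte recruitment to milky spots. As limits of the model, *Postn* is also expressed outside omentum, and the omenta of several mice were pooled into 1 library per group. Neither age nor sex was given in the labels.

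With 1 library per group there was no replicate error, and no difference between WT and *Postn*-DTR was tested. Every interval below is a 95% interval that covers counting error only and says nothing about the spread between mice. The WT library held 80151200 UMIs (unique molecular identifiers, each marking 1 captured transcript) and the *Postn*-DTR library 81012528, with medians of 5635 and 8473 per cell. *Postn* itself gave 84 UMIs in 34 WT cells and 20 UMIs in 8 *Postn*-DTR cells, and stromal cells (38 and 13) were too few to check the deletion closely. The 2 libraries shared 65 barcodes, so 130 cells carried a barcode found in both, 65 of them lymphocytes. Leaving out those cells moved no ratio below by more than the interval of its summed UMIs.

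In naive lymphocytes, CCR7 and L-selectin admit cells into lymphoid tissue, and chemokines from stromal cells then place them: CCL19 and CCL21 act on CCR7, CXCL13 on CXCR5 in B cell areas, and CXCL12 on CXCR4. S1PR1 senses sphingosine-1-phosphate and leads lymphocytes out again, and KLF2 drives its transcription. GPR183 (EBI2) reads oxysterols made by stromal cells and positions B cells, helper T cells and innate lymphoid cells. TCF1, the product of *Tcf7*, and LEF1 sustain naive and memory-like T cells, and *Igfbp4*, which encodes a secreted binder of insulin-like growth factors, is transcribed in naive T cells.

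All members are protein-coding genes. On GRCm38, *Ccr7* lies at chr11:99144196-99155077 on the minus strand and *Igfbp4* at chr11:99041244-99054392 on the plus strand, and *Tcf7* is on the same chromosome at chr11:52252371-52283014 (minus). *Lef1* lies at chr3:131110471-131224356 (plus) and *S1pr1* at chr3:115710433-115715072 (minus). *Cxcr5* spans chr9:44511787-44561877 (minus), *Cxcr4* chr1:128588199-128592293 (minus), *Klf2* chr8:72319033-72321656 (plus) and *Gpr183* chr14:121952551-121965195 (minus).

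RefSeq held upstream sequence for 6 of the 9 members (*Cxcr4*, *Klf2*, *Gpr183*, *Lef1*, *Tcf7* and *Igfbp4*), on GRCm38.p6. Those of *Klf2* and *Igfbp4* are shown 5′ to 3′ on the plus strand, on which both genes lie. *Klf2* had ratios of different signs in B1 and B2 B-like cells as clustered. *Igfbp4* was the only member at least 2-fold higher in *Postn*-DTR by mean levels among pairs with enough UMIs. The *Klf2* stretch is chr8:72318812-72319032, 221 bases with 71.5% G and C, and the capitals mark a MEF2-type box, TAAATTTA, a kind of site that MEF2 factors bind. That box was present in 165 of 32851 such stretches (0.502%), counted on both strands. The *Igfbp4* stretch is chr11:99040994-99041243, 250 bases with 69.2% G and C, and the capitals mark GGGTG, the reverse complement of the KLF family box CACCC, which 52.0% of all stretches held. Neither stretch held a FOXO box (GTAAACA, in 3.17% of all) or a TCF/LEF box (TTCAAAG, in 4.46%). These matches describe letters only and the data hold no measure of binding.
Klf2: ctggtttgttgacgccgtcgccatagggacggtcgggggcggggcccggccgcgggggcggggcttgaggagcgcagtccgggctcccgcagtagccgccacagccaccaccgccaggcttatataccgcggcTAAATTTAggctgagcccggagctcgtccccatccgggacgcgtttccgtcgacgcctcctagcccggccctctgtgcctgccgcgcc
Igfbp4: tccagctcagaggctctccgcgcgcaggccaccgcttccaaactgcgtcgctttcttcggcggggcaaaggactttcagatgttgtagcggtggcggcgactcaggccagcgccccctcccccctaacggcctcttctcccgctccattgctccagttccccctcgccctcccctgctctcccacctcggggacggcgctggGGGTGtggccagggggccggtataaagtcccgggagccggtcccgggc

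Cells were clustered without the 9 members and named from other markers. B2 B-like cells were named from *Ighd*, *Fcer2a* and *Cr2*, B1 B-like cells from *Zbtb32*, *Bhlhe41* and *Plscr1*, and Treg-like cells from *Foxp3*, *Il2ra* and *Ikzf2*. γδ T-like cells were led by *Trgv6*, *Il17a* and *Sox13*, NK-like cells by *Ncr1*, *Gzma* and *Prf1*, and group 2 innate lymphoid cells (ILC2-like) by *Calca* and *Areg*. Lymphoid tissue inducer-like (LTi-like) cells were led by *Il22*, and *Tnfsf11* was a further marker that was not among their leading genes. The other classes were naive CD4, CD4, naive CD8 and CD8 T-like cells and NKT-like cells. NKT-like cells were named from markers such as *Klrb1c*, *Klrk1* and *Tbx21*, and were led by *Klra1*, *Klra6* and *Klra7*. At resolution 0.8, with larger clusters, the cluster led by *Klra1* was named CD8 T and had *Cd8b1* and *Cd8a* among its leading genes. Whether the NKT-like class holds CD8 T cells was therefore not settled. Naive classes were named partly from *Dapl1*, *Actn1*, *Nsg2* and *Satb1*. WT and *Postn*-DTR cells numbered 462 and 25 in the naive CD4 class, 146 and 16 in the naive CD8 class, and 1537 and 446 in the B2 class. B1 B-like cells numbered 1055 and 478 and were the deepest class, with medians of 8671 and 6619.5 UMIs. A level below is the mean over cells of UMIs per 10000 UMIs of the cell, and a ratio is *Postn*-DTR over WT on the log2 scale, with 0.01 added to each level. An interval given beside a ratio belongs to the ratio of summed UMIs, in which deep cells weigh more.

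**Figure D1:**
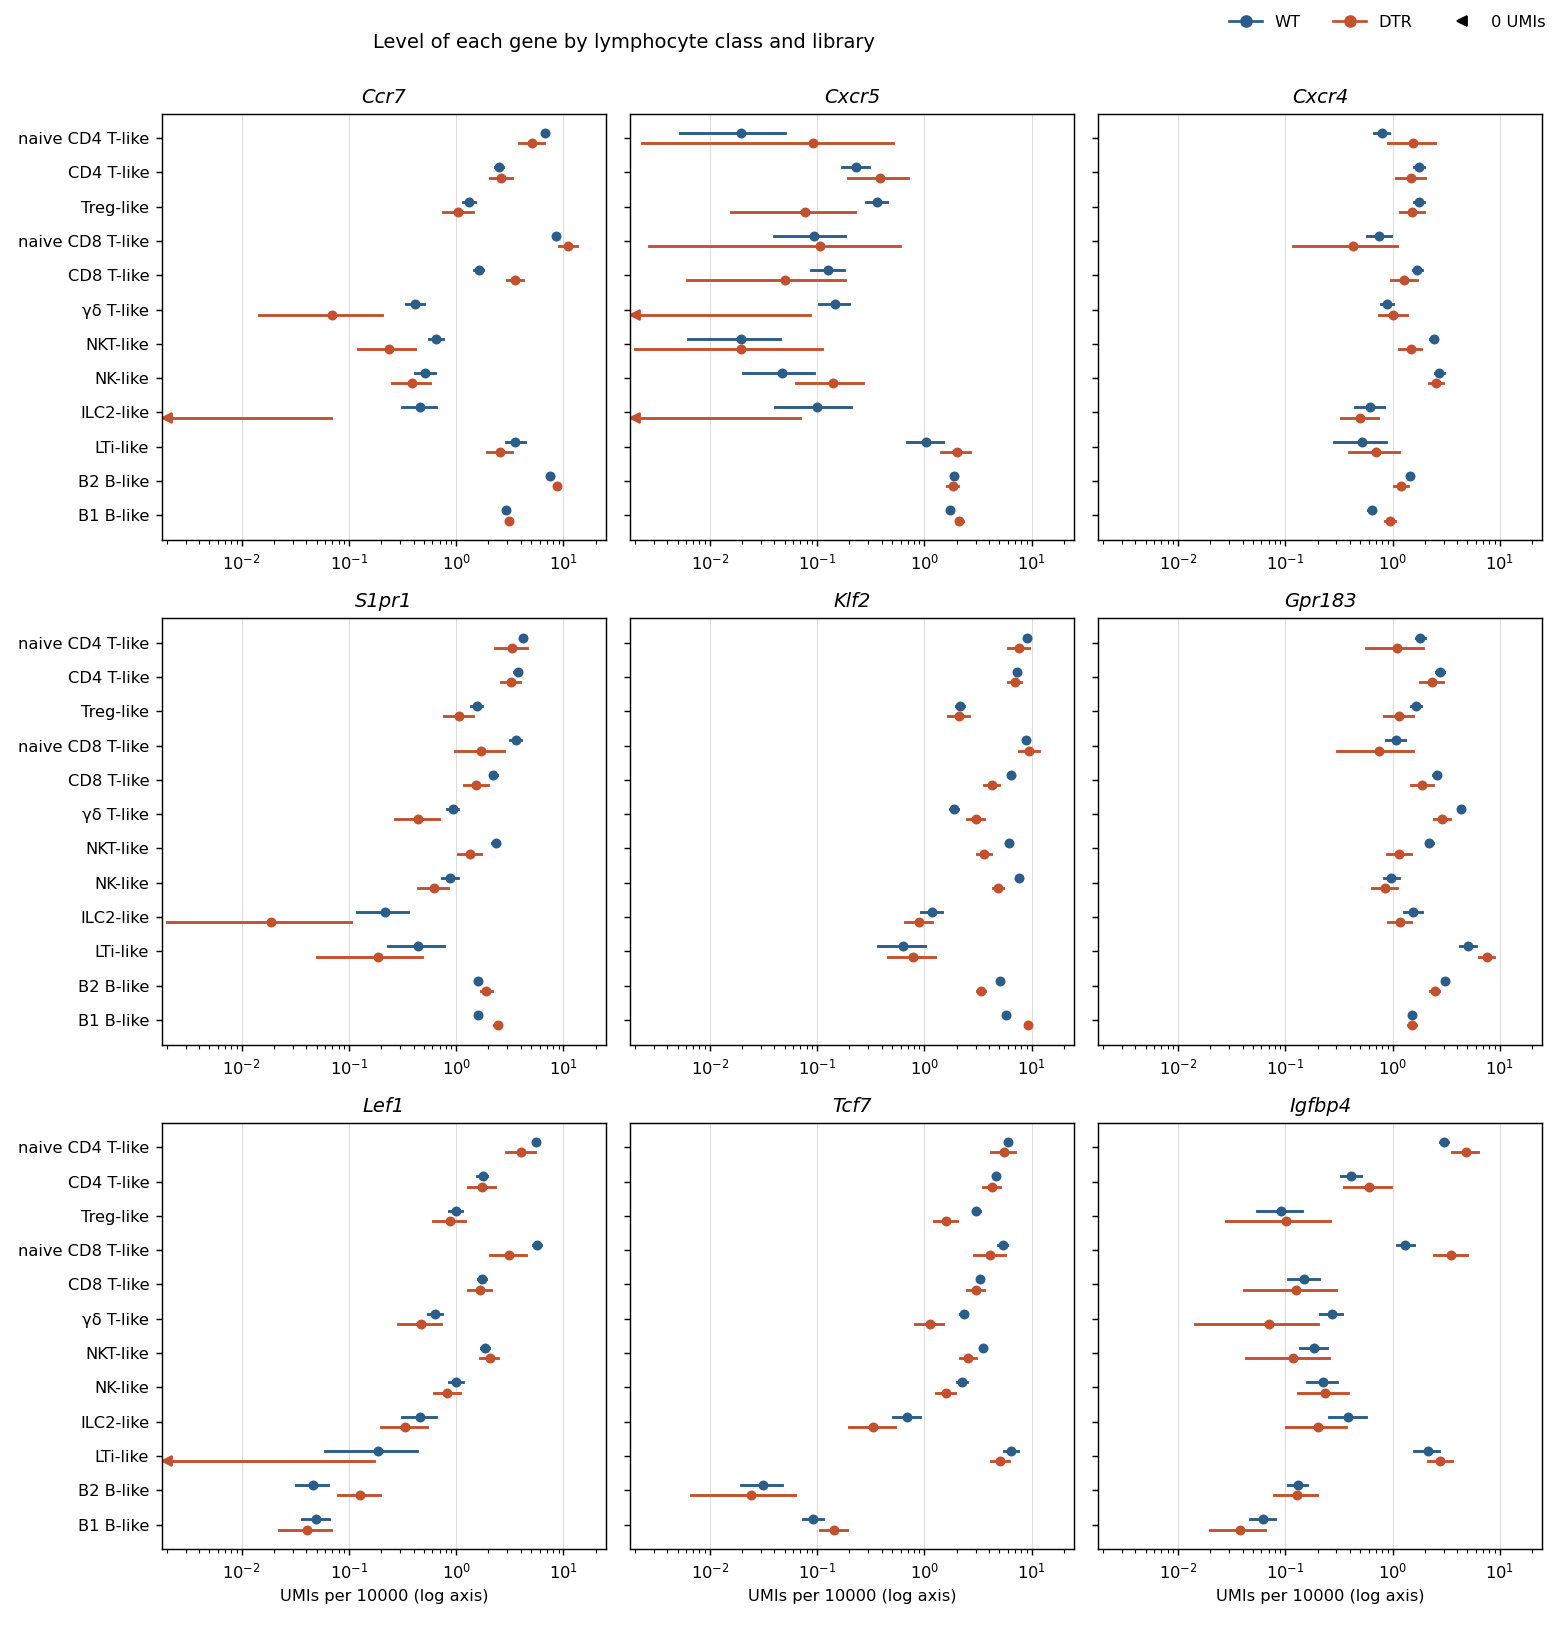
Summed UMIs of each member per 10000 UMIs of its class (log axis) in the 12 lymphocyte classes, WT and *Postn*-DTR, with exact 95% Poisson intervals as bars (counting error only). A triangle at the left edge marks 0 UMIs, which a log axis cannot show, with a bar up to its upper limit. *Ccr7* was high in naive T and B2 B-like cells and *Gpr183* in LTi-like and γδ T-like cells.

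The members had different orders across classes, which the plot of levels by class shows in full. *Ccr7* was highest in naive CD8 T-like cells (8.87 in WT against 10.0 in *Postn*-DTR), followed by B2 B-like cells (7.74 and 9.0) and naive CD4 T-like cells (6.83 and 6.0). In WT the intervals of these neighbours did not overlap. LTi-like cells had 4.7 and 2.39 and B1 B-like cells 3.08 and 3.22, and these classes overlapped in WT. *Ccr7* was lowest in NK-like, ILC2-like and γδ T-like cells (0.29, 0.255 and 0.246 in WT), whose intervals overlapped.

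*Cxcr5* was a B cell gene in these data. Its WT levels were 1.97 in B2 B-like and 1.77 in B1 B-like cells, with overlapping intervals. LTi-like cells followed at 0.966, and Treg-like and CD4 T-like cells had 0.31 and 0.199. The other 7 classes ranged from 0.0182 in naive CD4 T-like cells to 0.129 in CD8 T-like cells, and their intervals overlapped from each to the next. In *Postn*-DTR the first 3 classes were B1 B-like (2.22), LTi-like (1.92) and B2 B-like cells (1.85), whose intervals overlapped.

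*Cxcr4* had a different order, with NK-like cells highest (2.78 in WT and 2.92 in *Postn*-DTR). In WT, NKT-like (2.51), Treg-like (2.2), CD4 (1.9) and CD8 T-like (1.79), then B2 B-like cells (1.64) came next. Naive CD4 (0.949) and naive CD8 T-like cells (0.788), B1 B-like (0.731), ILC2-like (0.596) and LTi-like cells (0.515) were lower, each overlapping its neighbour.

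*S1pr1* and *Klf2* were both highest in naive CD4 T-like cells and lowest in innate lymphoid cells in WT. For *S1pr1*, WT levels were 4.51 in naive CD4, 4.02 in CD4 and 3.76 in naive CD8 T-like cells, which overlapped, against 0.467 in LTi-like and 0.128 in ILC2-like cells. For *Klf2*, they were 10.0 in naive CD4, 9.5 in naive CD8, 8.34 in NK-like and 8.09 in CD4 T-like cells, against 0.99 in ILC2-like and 0.566 in LTi-like cells. NK-like cells were near the top for *Klf2* but had only 0.825 of *S1pr1*. Across the 24 class and library means, the Pearson correlation of the log2 levels of this pair was 0.83, the highest of any pair of members, and is given as a description since classes share their library and depth.

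*Gpr183* was highest in LTi-like (5.18) and γδ T-like cells (4.62) in WT, which overlapped, then in B2 B-like (3.15), CD4 T-like (2.78) and CD8 T-like cells (2.68). It was lowest in naive CD8 T-like (1.04) and NK-like cells (0.898). *Lef1* was highest in naive T-like cells and *Tcf7* in LTi-like and naive T-like cells. *Lef1* had 5.99 in naive CD8 and 5.51 in naive CD4 T-like cells in WT, and the next class, NKT-like cells, had 1.93. *Tcf7* had 6.45 in LTi-like, 6.17 in naive CD4, 5.43 in naive CD8 and 4.56 in CD4 T-like cells, overlapping from each to the next. The LTi-like cells thus had the *Tcf7* level of naive T-like cells with little *Lef1* (0.188). In WT *Igfbp4* was high in naive CD4 T-like (2.44), LTi-like (2.11) and naive CD8 T-like cells (1.25), and the next class, CD4 T-like cells, had 0.369.

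The share of cells with at least 1 UMI was compared with cells that should lack the gene, since free RNA in droplets gives stray UMIs. After thinning each cell to 1000 UMIs, 43.5% of 453 WT naive CD4 T-like cells had a *Tcf7* UMI (exact 95% interval 38.9 to 48.2, 9 cells left out as too shallow) and 45.5% of 22 *Postn*-DTR cells (24.4 to 67.8, 3 left out). Without thinning the shares were 83.3% and 64.0%, at median depths of 4135.5 and 3372 UMIs. In neutrophil-like cells the thinned share was 1.26% in WT (3 of 238, 1 left out) against 0 of 728 in *Postn*-DTR (20 left out, upper limit 0.505% by the exact interval), and the unthinned shares were 5.02% and 0.802% at median depths of 8692 and 3295.5. For *Lef1* in the same neutrophil-like cells the thinned shares were 0.84% and 0.0%. B2 B-like cells had 0.393% and 0.226% for *Tcf7* and 0.655% and 0.905% for *Lef1*, with intervals that overlapped those of neutrophil-like cells in each library, so these values were not told apart from background. *Tcf7* in B1 B-like cells was also close to it (0.758% in WT and 1.26% in *Postn*-DTR, the latter with an interval of 0.462 to 2.71), although its ratio there was 0.51.

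The chemokine receptors gave stromal cells as their reference, and there the thinned shares of *Cxcr4* and *Cxcr5* were 0 of 38 WT cells and 0 of 13 *Postn*-DTR cells (exact upper limits 9.25% and 24.7%). Unthinned, *Cxcr4* was seen in 21.1% and 30.8% of these deep cells, whose medians were 24174 and 29078 UMIs. NK-like cells had thinned *Cxcr4* shares of 23.9% (380 cells, 2 left out) and 22.9% (140 cells, 1 left out), against 52.6% and 57.4% unthinned at medians of 4011.5 and 3791. *Cxcr5* was seen in 17.3% of 1527 thinned WT B2 B-like cells (10 left out) and in 16.1% of 442 *Postn*-DTR cells (4 left out), against 56.1% and 41.5% unthinned at medians of 4412 and 3234.

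Of the 108 pairs of a member and a class, 78 had at least 100 UMIs over both libraries and were given a ratio. In 53 of these the level was lower in *Postn*-DTR (67.9%, against 52.5% of the 45488 pairs of any gene and class), and the median ratio was -0.27. The interval lay below 0 in 25 pairs and above 0 in 14. The level was at least 2-fold lower in 7 pairs (8.97%, against 2.7% of all gene and class pairs) and at least 2-fold higher in 2 (2.56%, against 1.76%). Of the 7, 3 were *Ccr7* in classes with little of it. Its UMIs in WT and *Postn*-DTR were 113 and 3 in γδ T-like, 168 and 12 in NKT-like and 88 and 25 in NK-like cells. The intervals of *Ccr7* in NK-like and *Gpr183* in naive CD4 T-like cells (375 and 12 UMIs) spanned 0. The members were listed with earlier results of these data known, so these shares are descriptions. The number of *Postn*-DTR cells was small in the T classes, and 1 cell could carry much of a value there.

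**Figure D2:**
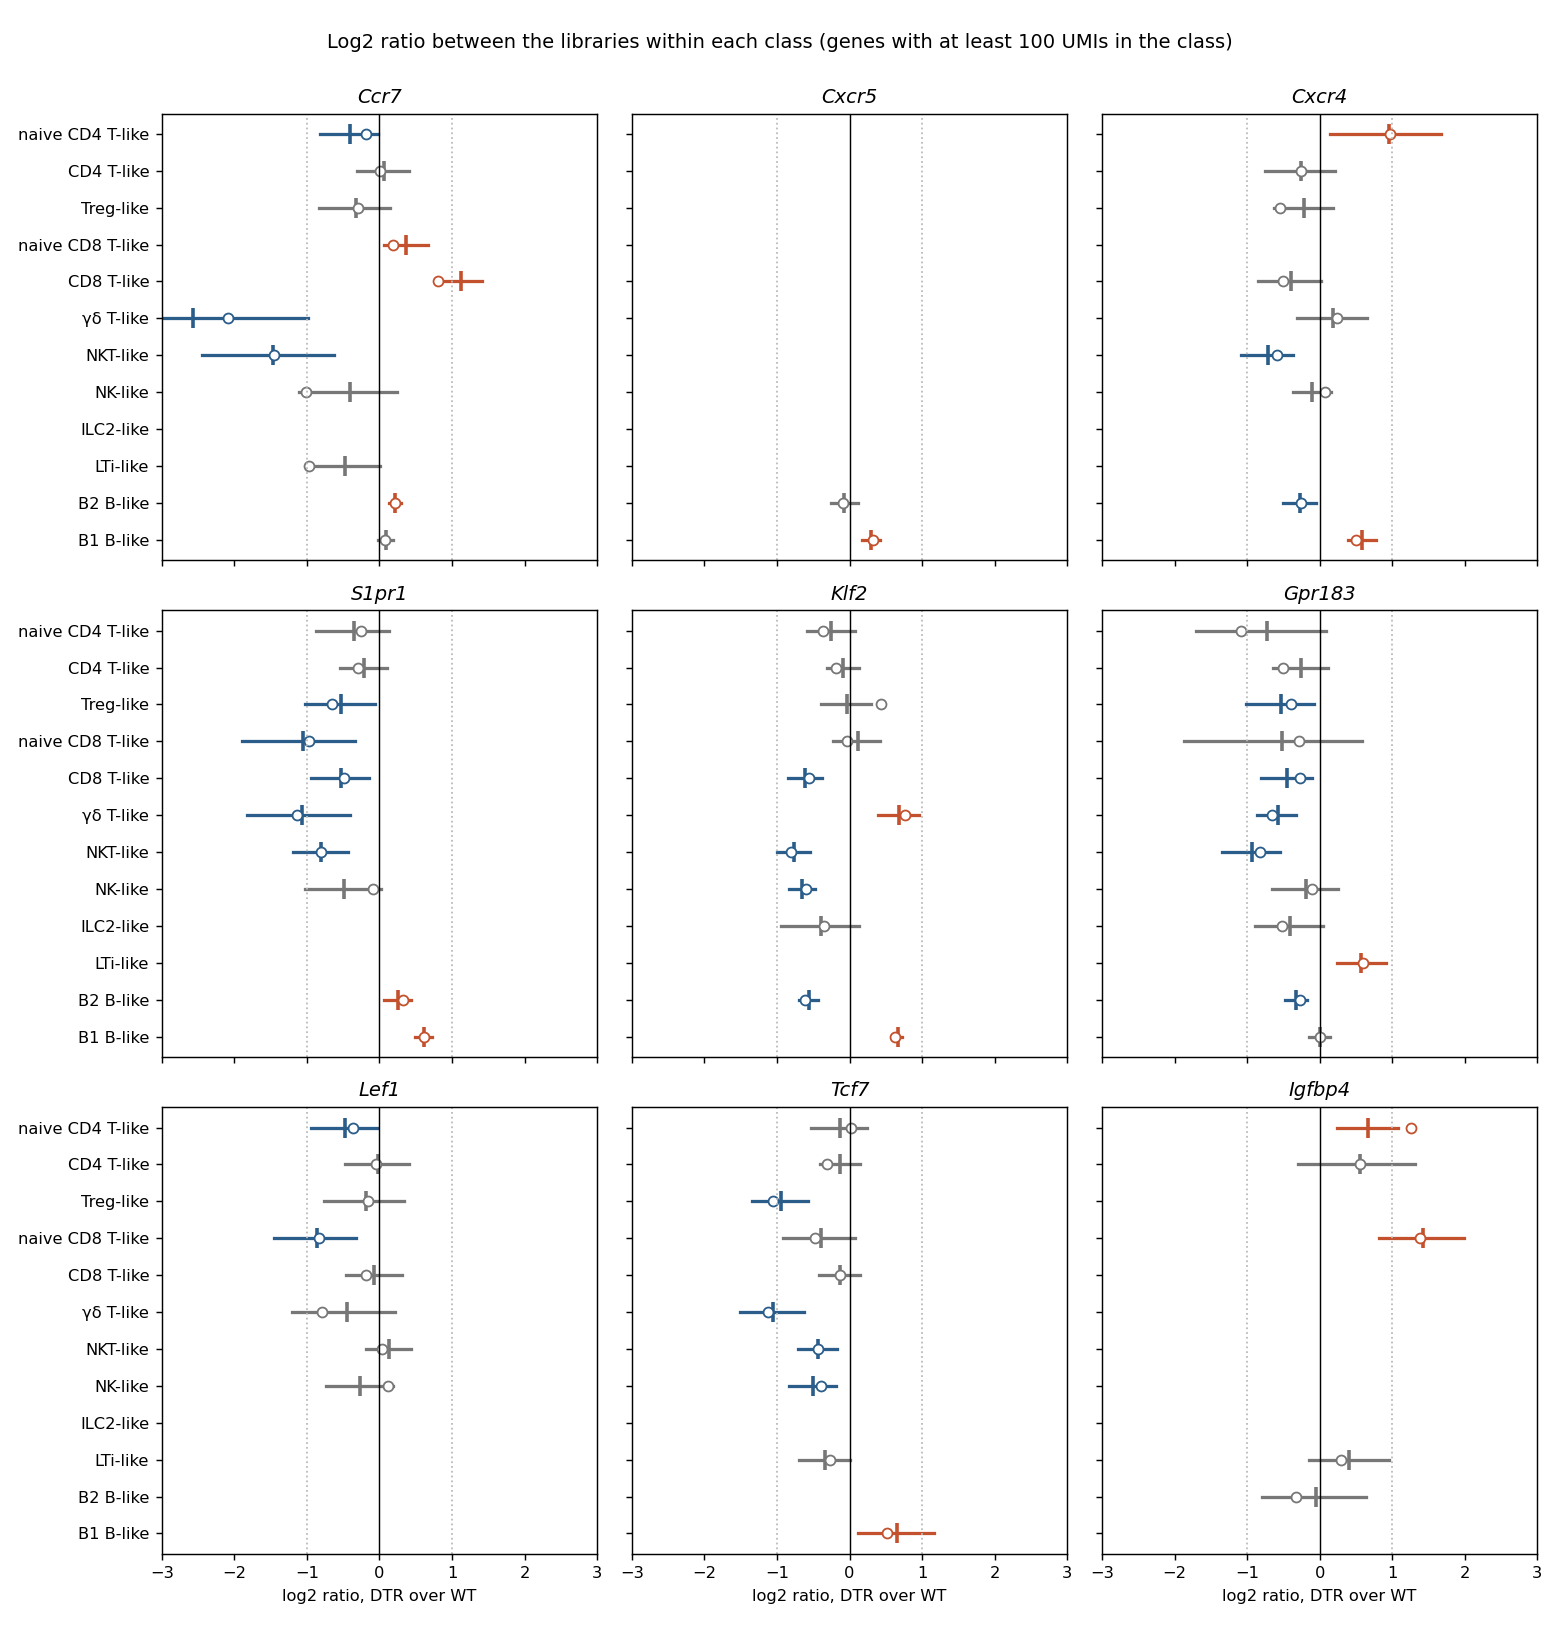
Log2 ratio of *Postn*-DTR over WT for each member in the classes where it passed 100 UMIs. Open circles are ratios of mean levels, ticks with bars are ratios of summed UMIs with 95% intervals (blue below 0, red above 0, grey spanning 0), and dotted lines mark 2-fold. The axis stops at 3 in each direction, and the γδ *Ccr7* interval runs on to -4.87. B1 B-like cells have no open circle left of 0, LTi-like cells have 2 of 4 there, and every other class has most there.

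In γδ T-like, NKT-like and NK-like cells, which had little *Ccr7*, its level was lower in *Postn*-DTR. In γδ T-like cells its level was 0.246 in WT (113 UMIs) against 0.0502 in *Postn*-DTR (3 UMIs), with a ratio of -2.09 (-4.87 to -0.98). In NKT-like cells it was 0.572 and 0.203, a ratio of -1.45 (-2.45 to -0.62), and in NK-like cells 0.29 and 0.139, a ratio of -1.01 whose interval reached 0 (-1.11 to 0.24). The NKT-like ratio turned to 0.14 after thinning to 1000 UMIs and to 0.29 under gates on marker UMIs. In ILC2-like cells 32 *Ccr7* UMIs were counted in WT against 0 in *Postn*-DTR, with an interval below -2.66. These levels were near those of cells that should lack the gene: *Ccr7* had 0.154 and 0.0456 in neutrophil-like, 0.147 and 0.0219 in plasma and 0.231 and 0.137 in monocyte-like cells, lower in *Postn*-DTR in each. After thinning to 1000 UMIs the shares of cells with *Ccr7* were 2.17% in γδ T-like, 2.11% in NK-like and 1.25% in ILC2-like cells of WT, with intervals that overlapped that of neutrophil-like cells (1.26%, 0.261 to 3.64). In *Postn*-DTR they were 0.0%, 1.43% and 0.0%, again overlapping (0.412%, 0.0851 to 1.2), so *Ccr7* in these 3 classes was not told apart from background. NKT-like cells had 3.76% (2.28 to 5.81) and 4.81% (1.58 to 10.9), and only the *Postn*-DTR interval lay above that of neutrophil-like cells. The unthinned shares were 8.68% and 3.57% in γδ T-like and 5.44% and 0.936% in neutrophil-like cells.

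*Ccr7* differed less in the classes that had most of it. In naive CD8 T-like cells the levels were 8.87 and 10.0 (0.18, interval 0.06 to 0.67), in B2 B-like cells 7.74 and 9.0 (0.22, 0.13 to 0.3), and in B1 B-like cells 3.08 and 3.22 (0.07, -0.02 to 0.19). Naive CD4 T-like cells had 6.83 and 6.0 (-0.19, -0.82 to -0.02). In CD8 T-like cells the level was higher in *Postn*-DTR, 1.25 against 2.19, with a ratio of 0.81 by means and 1.13 by summed UMIs (0.85 to 1.41), but after thinning the shares of cells were 8.47% and 8.22%. In LTi-like cells the ratio turned from -0.97 to 0.17 when the top WT cell alone was left out.

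*Cxcr5* passed the UMI filter only in B cells. Its level was 1.77 and 2.22 in B1 B-like cells (0.32, 0.17 to 0.42, but -0.63 under gates on marker UMIs) and 1.97 and 1.85 in B2 B-like cells (-0.09, -0.25 to 0.11). Among γδ T-like cells 40 *Cxcr5* UMIs were counted in WT against 0 in *Postn*-DTR (interval below -0.7). They lay in 15 of 507 WT cells, up to 8 in 1 cell, and the thinned share was 0.592%. Called doublets were 8.09% of WT and 2.38% of *Postn*-DTR γδ T-like cells, and their part in these UMIs was not tested. Among ILC2-like cells 7 were counted against 0 (interval below -0.15). Treg-like cells had 75 and 3 (-4.54 to -0.63), whereas LTi-like cells had 28 and 43 (0.22 to 1.68) and NK-like cells 8 and 9 (0.03 to 3.15). In the other classes below the filter the interval spanned 0. *Cxcr4* was higher in *Postn*-DTR in B1 B-like cells (0.731 and 1.04, ratio 0.5, 0.39 to 0.78). It was lower in NKT-like cells (2.51 and 1.66, ratio -0.59, -1.08 to -0.36), and likewise in the B2 class (1.64 and 1.36, ratio -0.26, -0.5 to -0.05). In naive CD4 T-like cells it was 0.949 and 1.87 (0.97, 0.15 to 1.68) on 17 *Postn*-DTR UMIs, and the ratio turned to -0.28 after thinning. NK-like cells, the class with most *Cxcr4*, had 2.78 and 2.92 (0.07, -0.37 to 0.16).

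*S1pr1* was lower in *Postn*-DTR in every T class and higher in both B classes. In γδ T-like cells it was 0.909 and 0.41 (-1.13, -1.83 to -0.4), in naive CD8 T-like cells 3.76 and 1.91 (-0.97, -1.89 to -0.34), and in NKT-like cells 2.42 and 1.39 (-0.8, -1.19 to -0.44). The intervals were also below 0 in Treg-like (1.8 and 1.13, -0.66) and CD8 T-like cells (2.28 and 1.62, -0.49), whereas those of naive CD4 (4.51 and 3.78, -0.25) and CD4 T-like cells (4.02 and 3.29, -0.29) spanned 0. B1 B-like cells had 1.69 and 2.58 (0.61, 0.49 to 0.73, but -0.32 under gates on marker UMIs). B2 B-like cells had 1.68 and 2.1 (0.32, 0.06 to 0.43). After thinning, 16.9% of 1055 WT and 22.0% of 478 *Postn*-DTR B1 B-like cells had an *S1pr1* UMI, against 66.6% and 76.2% unthinned.

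*Klf2* did not follow *S1pr1* in B2 B-like cells. There its level was 5.57 and 3.63 (-0.62, -0.69 to -0.43), opposite in sign to *S1pr1*. Over the alternatives this ratio ran from -0.72 to -0.07, with no change of sign. In B1 B-like cells *Klf2* was higher in *Postn*-DTR (6.02 and 9.32, ratio 0.63, 0.61 to 0.73, but -0.01 under gates on marker UMIs). It was lower in NKT-like (6.64 and 3.79, -0.81, -1.0 to -0.55), NK-like (8.34 and 5.51, -0.6, -0.83 to -0.47) and CD8 T-like cells (6.55 and 4.45, -0.56, -0.85 to -0.38). Values in naive CD4 (10.0 and 7.83, -0.36), CD4 (8.09 and 7.08, -0.19) and naive CD8 T-like cells (9.5 and 9.28, -0.03) had intervals that spanned 0. γδ T-like cells had 1.8 and 3.05 (0.76, 0.39 to 0.96), the opposite sign to their *S1pr1*, but the thinned shares of cells with a *Klf2* UMI were 14.4% and 14.3%. Of the 129 *Postn*-DTR UMIs there, 31 lay in 1 cell, and the γδ ratio turned to -0.39 under gates on marker UMIs. Whether the ratio itself differed between classes was not tested.

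Co-detection of *Klf2* and *S1pr1* in the same cells was counted in naive CD4 T-like, CD4 T-like and B2 B-like cells, with no test. In WT CD4 T-like cells thinned to 2000 UMIs, 149 of 272 cells with *Klf2* had *S1pr1* (54.8%), against 66 of 190 without (34.7%). In *Postn*-DTR the counts were 20 of 31 (64.5%) and 7 of 32 (21.9%). In B2 B-like cells the shares were 30.4% and 23.4% in WT and 36.3% and 28.0% in *Postn*-DTR. In naive CD4 T-like cells they were 62.0% and 37.9% in WT, but 6 of 12 and 3 of 7 cells in *Postn*-DTR.

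*Gpr183* was lower in *Postn*-DTR in 10 of 12 classes. It was 2.02 and 0.943 in naive CD4 T-like cells (-1.09), where 12 *Postn*-DTR UMIs gave an interval that reached 0 (-1.7 to 0.09). In NKT-like cells it was 2.23 and 1.26 (-0.82, -1.34 to -0.54), in γδ T-like cells 4.62 and 2.92 (-0.66, -0.86 to -0.32), and in the B2 class 3.15 and 2.62 (-0.27, -0.48 to -0.17), a difference not kept within sub-clusters. LTi-like cells, the class with most *Gpr183*, had more in *Postn*-DTR (5.18 and 7.85, 0.6, 0.24 to 0.91), and B1 B-like cells had 1.58 and 1.59.

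*Lef1* was lower in *Postn*-DTR in both naive classes, whereas *Tcf7* had its largest differences elsewhere. *Lef1* was 5.51 and 4.3 in naive CD4 T-like cells (-0.36, -0.94 to -0.03) and 5.99 and 3.34 in naive CD8 T-like cells (-0.84, -1.46 to -0.32). In CD4 (1.77 and 1.71), CD8 (1.63 and 1.44), NKT-like (1.93 and 1.97) and NK-like cells (0.966 and 1.05) the intervals spanned 0. *Tcf7* was 6.17 and 6.26 in naive CD4 T-like cells (0.02, -0.53 to 0.24). It was more than 2-fold lower in *Postn*-DTR in Treg-like cells (2.95 and 1.41, -1.06, -1.35 to -0.57) and γδ T-like cells (2.52 and 1.15, -1.12, -1.51 to -0.63). In thinned γδ T-like cells its share was 20.7% of 507 WT cells and 9.52% of 84 *Postn*-DTR cells. In LTi-like cells, 5 *Lef1* UMIs were counted in WT against 0 in *Postn*-DTR (the interval of the ratio spanned 0).

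By mean levels in the 78 pairs, *Igfbp4* was the only member at least 2-fold higher in *Postn*-DTR. In naive CD4 T-like cells its level was 2.44 in WT (624 UMIs in 462 cells) and 5.87 in *Postn*-DTR (53 UMIs in 25 cells), a ratio of 1.26. By summed UMIs it was 0.67 (0.24 to 1.08), under 2-fold, whereas *Ccr7* in CD8 T-like cells passed 2-fold by that measure. In naive CD8 T-like cells it was 1.25 and 3.29, a ratio of 1.38 (0.82 to 1.99), which became 0.58 without the top *Postn*-DTR cell. The thinned shares of naive CD4 T-like cells with an *Igfbp4* UMI were 17.4% (14.1 to 21.3) in WT against 40.9% (20.7 to 63.6) in *Postn*-DTR. In LTi-like cells the levels were 2.11 and 2.58 (0.29, -0.15 to 0.95). Stromal cells had far more (23.6 and 14.5), and the summed level of 5 stromal markers was 0.659 and 0.231 in naive CD4 T-like cells.

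Read by class, the members stood against different backgrounds of all genes. In γδ T-like cells 3 of 7 members passed 2-fold lower, where 4.43% of 4607 genes did so, and none higher (1.32%), with a median of -0.79 against -0.08 for all genes. The 3 were *S1pr1*, *Tcf7* and *Ccr7*, and *Ccr7* passed the UMI filter through its 113 WT UMIs at a level near background. In NKT-like cells 1 of 7 was 2-fold lower (1.42% of 4168 genes) and none higher (0.912%), and the median was -0.8 against -0.03. In B1 B-like cells none of 7 was past 2-fold (1.32% of 8004 genes lower and 1.52% higher), but none was below 0 and the median was 0.5 against 0.02. Under gates on marker UMIs 5 of the 7 turned below 0: *Ccr7* (-1.24), *Gpr183* (-0.88), *Cxcr5* (-0.63), *S1pr1* (-0.32) and *Klf2* (-0.01). In naive CD4 T-like cells, with 25 *Postn*-DTR cells, 1 of 8 was 2-fold lower and 1 higher, where 10.1% and 8.62% of 2750 genes were.

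In the remaining classes few members passed 2-fold. In Treg-like cells 1 of 7 was lower (2.42% of 3846 genes) and none higher (1.12%), and in NK-like cells 1 of 7 was lower (1.07% of 3738) and none higher (0.615%). In naive CD8 T-like cells none of 7 was lower (5.56% of 1097) and 1 was higher (1.73%). In CD4 T-like cells none of 8 passed in either direction (3.03% and 1.58% of 3603), nor did any of 7 in CD8 T-like cells (3.02% and 0.822% of 4134) or of 7 in B2 B-like cells (1.52% and 1.01% of 7237). None of 2 in ILC2-like cells (1.99% and 4.42% of 1608) and none of 4 in LTi-like cells (1.58% and 3.3% of 696) passed.

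The αβ T-like cells as a whole mixed a change of make-up with levels inside classes. Naive CD4 T-like cells were 23.0% of 2008 αβ T-like cells in WT and 8.5% of 294 in *Postn*-DTR, whereas Treg-like cells were 20.3% and 32.0%. *Ccr7* over all αβ T-like cells was 3.43 and 2.69 (-0.35), but with the WT make-up applied the *Postn*-DTR level was 3.5 (0.03). *Lef1* went from -0.69 to -0.32, *Tcf7* from -0.53 to -0.25 and *S1pr1* from -0.59 to -0.4 in the same way. *Gpr183* stayed lower at -0.42 and -0.5, and *Igfbp4* went from 0.18 to 1.14. *Cxcr5* was 0.08 as observed, 0.28 with the WT and -0.23 with the *Postn*-DTR make-up. This is arithmetic on class means, and a class with fewer cells was weighted up by it.

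**Figure D3:**
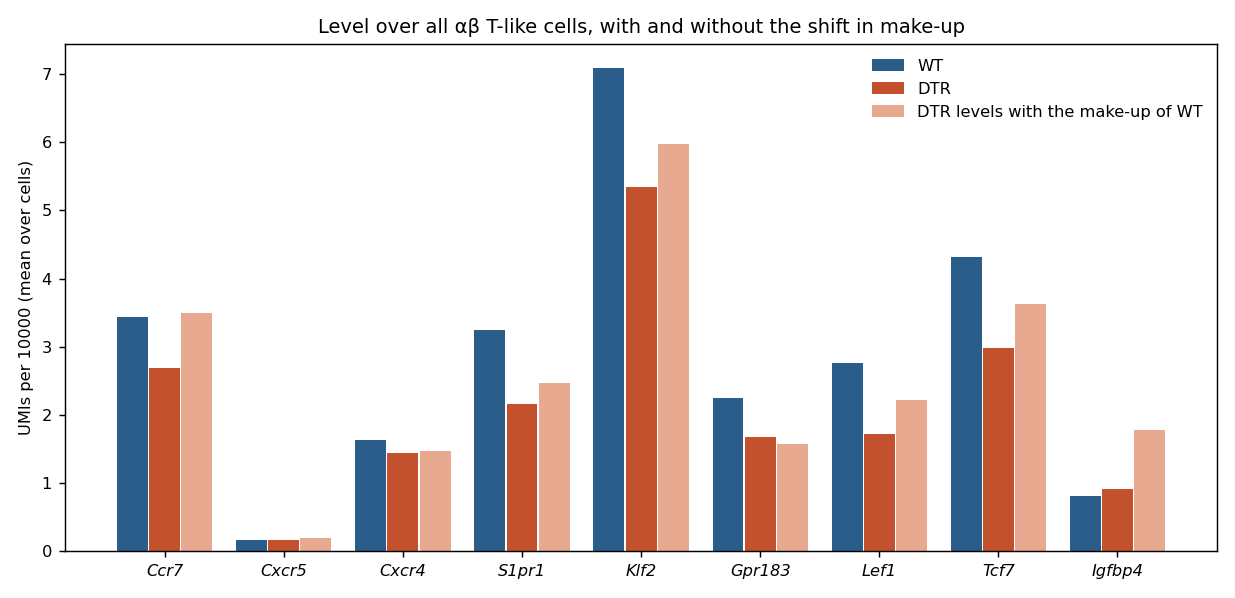
Level (mean UMIs per 10000) of each member over αβ T-like cells, NKT-like cells left out, in WT (blue) and in *Postn*-DTR (red). Pale bars are *Postn*-DTR with the class shares of WT. There are no error bars because there was 1 library per group. The pale *Ccr7* bar, at 3.5, reaches the WT bar at 3.43, whereas those of *S1pr1*, *Klf2*, *Gpr183*, *Lef1* and *Tcf7* do not.

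B2 B-like cells of the 2 libraries came mostly from different sub-clusters. Sub-cluster 1 held 43.8% of the WT and 87.9% of the *Postn*-DTR B2 B-like cells, and sub-cluster 2 held 55.9% and 12.1%. *Klf2* was lower in *Postn*-DTR in each: 6.15 and 3.74 in sub-cluster 1 (-0.72, -0.72 to -0.42) and 5.13 and 2.85 in sub-cluster 2 (-0.84, -1.2 to -0.49). *Ccr7* was higher in each, with ratios of 0.23 and 0.29. *Cxcr5* was 1.72 and 1.9 in sub-cluster 1 (0.15) and 2.17 and 1.49 in sub-cluster 2 (-0.54, -0.86 to 0.07). *Gpr183* had 2.69 and 2.46 in sub-cluster 1 (-0.13, -0.32 to 0.07) and 3.53 and 3.76 in sub-cluster 2 (0.09, -0.33 to 0.31), so both intervals spanned 0.

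**Figure D4:**
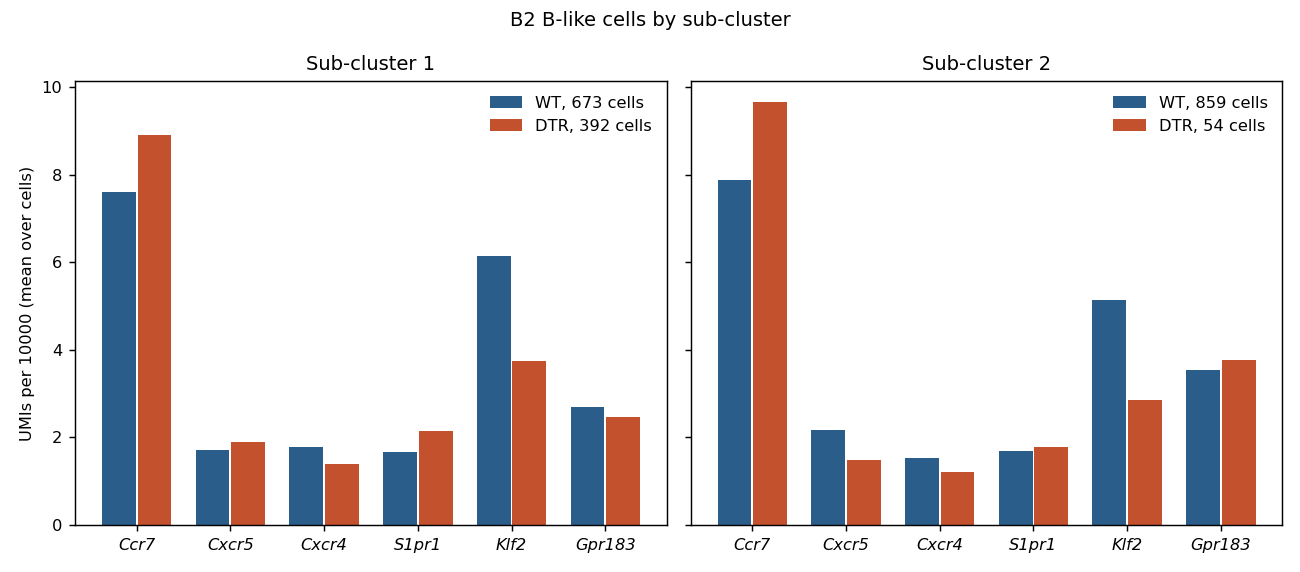
Level (mean UMIs per 10000) of 6 members in the 2 sub-clusters of B2 B-like cells, WT in blue and *Postn*-DTR in red, without error bars because there was 1 library per group. In both panels the *Klf2* bar is lower and the *Ccr7* bar higher in *Postn*-DTR.

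Among 26 other genes of homing and its signalling, 241 pairs with a class passed the filter, and 159 were below 0 (66.0%). At least 2-fold lower were 3.32% and higher 1.24%, and class medians ran from -0.43 in naive CD8 T-like to 0.1 in LTi-like cells. In B1 B-like cells, *Coro1a*, which regulates actin in moving cells, had 16.1 and 17.1, *Rac2*, a small GTPase of cell movement, 11.6 and 10.1, and *Gnai2*, the inhibitory G protein subunit downstream of chemokine receptors, 7.85 and 7.96. *Grk6*, a kinase of such receptors, had 2.5 and 3.57 (0.51). In naive CD4 T-like cells *Coro1a* had 16.6 and 13.1 (-0.34), *Rac2* 10.2 and 7.89 (-0.37) and *Il7r*, the interleukin-7 receptor, 3.33 and 5.22 (0.65).

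Of 22 other naive-state genes, 188 pairs passed and 128 were below 0 (68.1%), with 11.2% at least 2-fold lower and 4.26% higher. In naive CD4 T-like cells *Ets1*, a transcription factor, had 6.0 and 2.93 (-1.03), whereas *Satb1*, a chromatin organiser, had 5.52 in each library. *Satb1*, *Dapl1*, *Actn1* and *Nsg2* of this list also served to name the naive classes. Of 21 activation and effector-state genes, 178 pairs passed and 115 were below 0 (64.6%), with 6.74% at least 2-fold lower and 2.25% higher. Of 13 genes for the ligands and their metabolism, only 7 pairs passed in lymphocytes, and 5 were below 0.

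Stress and hormone-responsive genes differed between the libraries too. Of 19 immediate early and dissociation genes, 191 pairs passed and 40.3% were below 0, with 4.71% at least 2-fold lower and 7.33% higher. Their medians were 0.75 in B1 B-like, 0.93 in naive CD8 and 0.59 in naive CD4 T-like cells, against -0.23 in the B2 class. In B1 B-like cells *Jund*, a subunit of the AP-1 factor, had 9.76 and 16.7 (0.77). Of 13 glucocorticoid-induced genes, 78 pairs passed and 15.4% were below 0, with 23.1% at least 2-fold higher and none lower. Their medians were above 0 in all 12 classes, from 0.13 in ILC2-like to 0.98 in γδ T-like cells, with 0.73 in B1 B-like cells. *Tsc22d3*, a glucocorticoid target, had 2.57 and 6.23 in B1 B-like cells (1.28). The part of these genes' shift in the values of the members was not tested.

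Markers of other cells also moved with the library. The summed level of 5 plasma cell markers ran in the 10 classes other than B cells from 4.29 to 7.94 (WT) and from 8.76 to 18.8 (*Postn*-DTR). That of 5 neutrophil markers ran from 0.24 to 0.605 and from 0.585 to 1.84, higher in all 12 classes. Of the 5 macrophage markers the sum was 2.26 and 6.85 in B1 B-like and 1.26 and 5.01 in B2 B-like cells, with none of them at 0, and macrophage-like cells had more *Klf2* (17.1 and 13.7) than either. Over all classes the macrophage sum ran from 0.24 to 2.26 and from 0.0675 to 6.85, and the sum of 5 stromal markers from 0.327 to 0.712 and from 0.14 to 0.519. Both red cell markers were at 0 in *Postn*-DTR naive CD4 T-like cells, with 10.5 in WT. The part of these other cells in the values of the members was not tested. When B1 cells were chosen by gates on marker UMIs instead of clusters, only 40.6% of the 325 *Postn*-DTR gate cells fell in the B1 class. Plasma cells were the most common class among the others.

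For each member, the genes with the most similar levels over the 24 class and library means were sought among 9587 genes, by the Pearson correlation of log2 levels. They were *Ctss* (0.816) and *Rhoh* (0.795) for *Ccr7*, *Snx9* (0.827) and *Xylt1* (0.798) for *Cxcr5*, and *Pglyrp1* (0.826) and *Tmc8* (0.824) for *Cxcr4*. *S1pr1* was most like *Slamf6* (0.892) and *Arhgdib* (0.853), *Klf2* like *Slc44a2* (0.898) and *Gm45552* (0.898), and *Gpr183* like *Dusp12* (0.857) and *Ptpra* (0.754). *Lef1* was most like *Ms4a4b* (0.901) and *Trac* (0.897), *Tcf7* like *Saraf* (0.927) and *Ppm1h* (0.91), and *Igfbp4* like *Tubb2a* (0.808) and *Mrpl35* (0.793). By the rank correlation only 4 of these 18 genes were again among the nearest. Among the members, *Ccr7* and *Cxcr5* (0.69), *Ccr7* and *S1pr1* (0.69) and *Lef1* and *Tcf7* (0.61) had the next highest correlations, and *Cxcr5* and *Lef1* had -0.62.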

How the data were processed

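Single-cell 5′ RNA-seq libraries (3′ in the study's methods) of omental cells from WT and *Postn*-DTR mice were mapped by the authors with Cell Ranger (version 6.0.0 per the submitters' processing notes, another version in the study's methods) to mm10. The deposited values were the natural log of 1 plus UMIs per 10000 UMIs of the cell, not the counts that the design had allowed for. UMIs were recovered from them (99.77% and 99.59% of values were whole within 0.1 UMIs) and back-transformed levels were averaged over the cells of a class. Of 1078 genes listed without a symbol, 1060 were named from GENCODE M21 (GRCm38).

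Cells with 200 to 7500 genes and at most 25% mitochondrial UMIs were kept (8654 of 8686 and 5727 of 5736 barcodes). They were normalised with SCTransform (sctransform 0.4.2, Seurat 5.3.0, R 4.3.3) on 3000 variable features, from which the 9 members and V, D and J segments were left out, and clustered on 30 principal components at resolution 0.8 without batch correction. Clusters were named from fixed marker lists, at least 3 markers being needed. T clusters were split at resolution 1.6, and the naive CD8 name was given to a cluster led by both naive and CD8 markers. Doublets were scored with Scrublet in scanpy 1.11.5, and the automatic threshold marked 0.0231% of WT cells, so the highest scores at a rate of 0.8% per 1000 cells were called (6.92% and 4.57%). They were kept, and removed in an alternative. Their share was higher in WT in every lymphocyte class except B1 B-like cells (1.14% and 2.09%). The largest shares were in LTi-like (13.0% in WT and 2.04% in *Postn*-DTR) and γδ T-like cells (8.09% and 2.38%). The split, the thresholds for names and the doublet rate were chosen after clusters were seen.

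The members and gene lists (homing partners, other naive-state, activation, ligands, immediate early, glucocorticoid-induced and markers of other cells) were chosen with earlier results of these data known. Every member was described in every class, listed genes by counts with the most abundant as examples, and for each member the 2 genes of highest correlation. Poisson, Clopper-Pearson and conditional binomial intervals were computed in scipy 1.17.1. Of these, only the conditional binomial interval was tested, on simulated Poisson counts without added spread between cells. All these intervals cover counting error only. No test between groups was made, since each group was 1 library. Alternatives changed the sum over cells, pseudocount, total, filter, thinning, doublets, clustering, gates and members of a class.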

Additional observations from a re-analysis of the deposited data

Results flagged for a closer look

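Some members had counting intervals on opposite sides of 0 in different classes, and the pair of classes farthest apart is given for each. With 1 library per group these differences between classes were not tested.

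*Ccr7* had a log2 ratio of *Postn*-DTR over WT of -2.09 in γδ T-like and 0.81 in CD8 T-like cells, the former at a level near background. *Cxcr4* had -0.59 in NKT-like and 0.97 in naive CD4 T-like cells, the latter turning to -0.28 after thinning. *S1pr1* had -1.13 in γδ T-like and 0.61 in B1 B-like cells, the latter turning to -0.32 under gates on marker UMIs. *Klf2* had -0.81 in NKT-like and 0.76 in γδ T-like cells, the latter turning to -0.39 under those gates. *Gpr183* had -0.82 in NKT-like and 0.6 in LTi-like cells. *Tcf7* had -1.12 in γδ T-like and 0.51 in B1 B-like cells, where its level was near background.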

How the results depend on the processing

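The number of member and class pairs at least 2-fold lower in *Postn*-DTR was 7. It was 4 with called doublets removed (of 73 pairs tested), 12 with at least 30 UMIs required and 16 with no filter. Under gates on marker UMIs it was 9, of which 1 was among the 7, and after thinning to 1000 UMIs it was 10, of which 3 were. The number at least 2-fold higher was 2. It was 1 without the split of T clusters, 1 without the top cell and 4 with no filter. The top cell was left out only in the library with the higher level, which can only move a ratio towards or past 0. The cause was not tested beyond the construction of each alternative, since a lower filter admits more pairs (97 and 108 in place of 78). *Ccr7* in NKT-like cells turned from -1.45 to 0.14 after thinning to 1000 UMIs and to 0.29 under gates on marker UMIs.

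Signs changed in 20 of 78 ratios under gates, 9 under thinning, 6 without the top cell, 5 by summed UMIs, 5 with the members among the variable features, 3 without doublets, 2 with other totals, 1 after centring on the median gene, 3 of 56 without the T split, and 0 at a pseudocount of 0.05, at least 500 genes, resolution 0.4 or 1.6, or without shared barcodes. The αβ T-like and NKT-like classes came from the resolution 1.6 clusters in the main setting and at both other resolutions. NK-like, ILC2-like and LTi-like classes had the same cell numbers at each resolution. For these classes the 0 at resolution 0.4 or 1.6 was largely set in advance and is no check on clustering. Treg-like *Klf2* went from 0.43 to -0.04 by summed UMIs. Shares of cells moved beyond their interval in 128 of 216 cases when thinned to 2000 UMIs and in 179 without thinning, as depth sets them. Leaving out a replicate was impossible with 1 library per group. No paired analysis was possible because each group had a single library. The naive CD4 and CD8 classes rested on 25 and 16 *Postn*-DTR cells.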

Other observations

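Members were also found outside lymphocytes. *Klf2* had a level of 4.71 in WT and 9.65 in *Postn*-DTR neutrophil-like cells, and after thinning to 1000 UMIs it was seen in 32.4% (26.5 to 38.7) and 50.1% (46.4 to 53.8) of them. The class joined 2 clusters that the libraries filled differently: one led by *Csf3r* and *Cxcr2* held 54 WT and 480 *Postn*-DTR cells, and one led by *Ltf* and *Camp* held 185 and 268. In macrophage-like cells *Klf2* had 17.1 and 13.7, and *Igfbp4* had 4.66 and 1.91. *Cxcr4* in macrophage-like cells had 0.911 and 2.36. At resolution 1.6 these cells split into clusters of 102 WT and 189 *Postn*-DTR cells and of 19 and 142, so make-up and level were not separated here.

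Of the ligands of these receptors, *Cxcl13*, which binds CXCR5, had 9.92 and 4.01 in the 38 and 13 stromal cells, and gave 845 UMIs in 121 and 746 UMIs in 331 macrophage-like cells. *Cxcl12*, which binds CXCR4, had 29 and 135 UMIs in the stromal cells, with levels of 0.411 and 3.61. *Ccl21a* had 1 UMI among all cells and *Ccl19* had 20 and 5. With so few stromal cells and 1 library per group, these values are given without comparison.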
